A study of Mus musculus with 36 samples.

Results

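The natriuretic peptide system was followed through 9 genes: the peptide genes Nppa, Nppb and Nppc, the receptor genes Npr1, Npr2 and Npr3, the processing enzyme genes Corin and Furin, and Ostn, which encodes a peptide that binds the Npr3 receptor. They were taken by symbol, and all 9 were present among the 49568 symbols counted. A low-count filter kept 7 of the 9 and 18628 of all symbols; Nppa and Nppb did not pass it, and Ostn passed only through the libraries in which it was high. RNA was sequenced from ligated left carotid arteries of mice, 1 library per mouse, in 12 groups of 3. The arteries were taken on day 14 of ligation, in which flow is stopped by tying the vessel and the wall remodels.

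The mice were 129X1/SvJ (129X1) or C57BL/6J (B6). Each received sacubitril/valsartan (Sac/val) at 60 mg/kg/day, valsartan (Val) at 27 mg/kg/day, or vehicle (Veh) at 2 mL/kg/day. In the therapeutic regimen dosing began 7 days after ligation and lasted 7 days, and in the prophylactic regimen it began 2 days before ligation and lasted 16 days. Each combination of strain, treatment and regimen had 3 mice. All animals were ligated, so no level below is set against an uninjured artery, and each library is a whole vessel segment with whatever tissue remained on it.

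Atrial and B-type natriuretic peptides, from Nppa and Nppb, are made mainly by heart muscle and act on Npr1, a receptor that makes cyclic GMP and relaxes smooth muscle. C-type natriuretic peptide, from Nppc, is made by endothelium among other cells and acts on Npr2, the related cyclase, while Npr3 lacks a cyclase domain and removes the peptides from the extracellular space. Neprilysin, encoded by Mme, degrades the peptides; sacubitril is a prodrug of a neprilysin inhibitor, and valsartan blocks the angiotensin II type 1 receptor.

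Total counts per library were 18.96 to 28.97 M. Transcripts of the contractile smooth muscle list and the endothelial list were present in every library, with summed levels of 625 to 4141 CPM and 538 to 925 CPM in 129X1 arteries, against 980 to 3538 CPM and 390 to 972 CPM in B6 arteries. The lists of other tissues were present as well. Rag1, a recombinase of developing thymocytes, reached 10 CPM or more in 16 of 36 libraries, 12 of 18 from 129X1 and 4 of 18 from B6. Adipocyte transcripts summed to 6562 to 16881 CPM (median 10571) in 129X1 and 3197 to 13628 CPM (median 6751) in B6. CPM here uses TMM-scaled library totals. In whole tissue, fewer cells of a type and less RNA per cell cannot be told apart.

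Promoters are shown for 3 genes: Nppa, whose transcript was close to absent, and Nppc and Npr3, the 2 members called between the strains. Each sequence is the 250 bases before the RefSeq start on GRCm38.p6, written 5′ to 3′ on the gene's strand. The windows are chr4:148000472-148000721 on the plus strand for Nppa, chr1:86670574-86670823 on the minus strand for Nppc and chr15:11907372-11907621 on the minus strand for Npr3. Capitals mark TATAAA and TGATAA.
Nppa: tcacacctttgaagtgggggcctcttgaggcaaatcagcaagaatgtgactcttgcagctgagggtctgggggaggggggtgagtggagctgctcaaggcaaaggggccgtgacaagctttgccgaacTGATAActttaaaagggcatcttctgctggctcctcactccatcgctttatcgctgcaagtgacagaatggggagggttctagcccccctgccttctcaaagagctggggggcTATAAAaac
Nppc: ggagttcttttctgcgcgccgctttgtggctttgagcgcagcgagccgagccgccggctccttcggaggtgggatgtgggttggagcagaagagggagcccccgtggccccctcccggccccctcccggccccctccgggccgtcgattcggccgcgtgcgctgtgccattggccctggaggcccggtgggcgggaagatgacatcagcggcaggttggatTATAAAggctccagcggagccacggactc
Npr3: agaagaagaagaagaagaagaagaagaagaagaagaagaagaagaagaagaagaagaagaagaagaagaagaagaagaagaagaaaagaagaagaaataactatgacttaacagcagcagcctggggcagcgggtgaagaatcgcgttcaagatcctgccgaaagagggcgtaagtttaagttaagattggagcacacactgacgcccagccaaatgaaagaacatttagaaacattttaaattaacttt
Motifs were searched on both strands. The sequence TATAAA was found in 12.4 percent of 32851 promoter windows of the same length, AGATAA in 9.99 percent and TGATAA, which ends in the same letters, in 7.94 percent. For CATTCC the share was 12.6 percent, and for the CArG box it was 1.47 percent. Nppa held TATAAA and TGATAA, Nppc held TATAAA, and Npr3 held none of the 5. The Nppc window had 24 CpG dinucleotides and a GC content of 69.2 percent, against a median of 6 and 52.4 percent over all windows. The Npr3 window opened with a run of GAA repeats and had a GC content of 38.8 percent. These letters describe the windows of the reference genome only, and no binding was measured. The sequence of each strain was not examined, so whether the windows differ between the strains was not tested.

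Levels were compared between genes as CPM per kilobase of exon. Npr1 stood highest at 20.6 ± 5.15 (SD, n = 36), followed by Npr2 at 17.4 ± 4.10 and Furin, a protease that cleaves the precursors of B-type and C-type peptides, at 12.4 ± 2.56. Npr3 followed at 2.14 ± 0.977, about an order of magnitude below Npr1. Npr1 was above Npr2 in 30 of 36 libraries and Npr2 above Furin in 34 of 36, but the ranges of these neighbours overlapped. Furin and Npr3 did not overlap in any library. With the longest transcript as the length in place of all exons, Npr1, Npr2 and Furin averaged 24.3, 22.2 and 19.8, in the same order but closer together.

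The peptide genes were far lower. Nppc averaged 0.247 ± 0.340 CPM per kilobase and was above zero in 35 of 36 libraries. Corin, which encodes the membrane protease that activates atrial peptide and is best known from heart muscle, averaged 0.109 ± 0.092 on the same scale and was below Nppc in 26 of 36 libraries. Nppa had 7 counts in all, 3 in 129X1 and 4 in B6, and was at 0 in 29 of 36 libraries. Nppb had 16 counts, 9 in 129X1 and 7 in B6, and was at 0 in 23 of 36. No library held more than 1 count of Nppa or 3 of Nppb, so no difference in either gene was detectable at this depth.

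**Figure D1:**
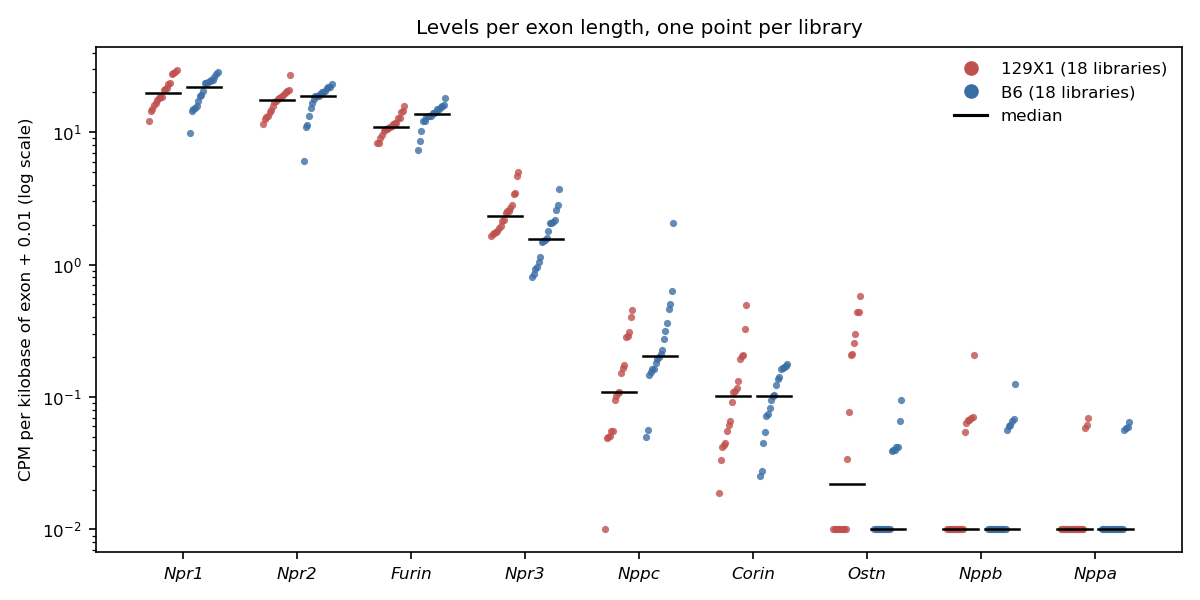
Level of each gene as CPM per kilobase of exon, plus 0.01, on a log axis; each point is 1 library, 18 of 129X1 left of 18 of B6, and the black line is the median. Npr1, Npr2 and Furin lie highest, Npr3 lies below Furin in every library, and most libraries of Nppa and Nppb sit at 0.

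The genes lie at separate places apart from the linked pair Nppb and Nppa, which are 13516 bases apart on chromosome 4 of GRCm38 (GENCODE M21). Nppb spans 147985788 to 147987205 and Nppa 148000722 to 148002079, both on the plus strand. Nppc is at 86666291 to 86670571 on chromosome 1, Npr1 at 90450591 to 90465866 on chromosome 3 and Npr3 at 11839896 to 11907287 on chromosome 15, all on the minus strand. Npr2 is at 43631935 to 43651244 on chromosome 4, plus strand. Furin is at 80388585 to 80405436 on chromosome 7 and Corin at 72300025 to 72504473 on chromosome 5, both minus, and Ostn at 27307489 to 27351212 on chromosome 16, plus. An annotated gene on the opposite strand overlaps Nppa, Npr1, Npr2, Npr3, Corin, Furin and Ostn, and whether the counting used strand is not given in the sources used here, so reads of such partners may be included.

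The first comparison asked how the strains differed, over all treatments and regimens. Npr3 was higher in 129X1 arteries, and Npr1, Npr2, Corin and Furin did not pass. Nppc was called lower, but it entered the fit only through B6 libraries in which it was high. Its call is therefore not read as a result. With edgeR's quasi-likelihood test and Benjamini-Hochberg adjustment over all tested genes, 33.8 percent of all genes passed in either direction, so 2 of 7 is close to the share of all genes. The median log2 difference of the 7 was -0.01 against -0.02 for all tested genes.

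Npr3 had 15.4 to 46.8 CPM (median 21.6) in 129X1 arteries and 7.42 to 34.7 CPM (median 14.5) in B6 arteries. The ranges overlapped, but no 129X1 library fell below 15.4 CPM, and the B6 median lay under that level. The log2 difference was 0.61 with an SE of 0.18 and an edgeR adjusted p of 0.0104. It remained past the threshold in all 36 fits that left out 1 library, between 0.52 and 0.69. Within treatments the difference passed under Val, at 1.05 (SE 0.32, edgeR adjusted p 0.0209), where 20.9 percent of genes passed. The 6 Val libraries of 129X1 ran from 15.4 to 43.9 CPM (median 21.1), against 7.42 to 20.5 CPM (median 9.62) in B6. Under Veh the log2 difference was 0.57 (edgeR adjusted p 0.231, 13.5 percent of genes passed) and under Sac/val 0.21 (edgeR adjusted p 0.719, 6.26 percent passed). The Val minus Veh difference by strain was 0.48 for Npr3 (SE 0.45, edgeR adjusted p 0.713), so a change of the strain difference with Val was not shown.

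Npr3 moved with fat transcripts. Of the 7 adipocyte markers, 6 were higher in 129X1, and of 6 brown fat markers 5 were. Among all 18628 tested genes, 3044 were higher and 3252 lower in 129X1. Over 36 libraries Npr3 and the adipocyte score, the mean log2 CPM of the list, had Pearson's r 0.824 and Spearman's rho 0.820 (permutation adjusted p 8.3e-05 and 0.000152 over 91 relations), and r 0.799 without the 2 libraries farthest from the median score. Within 129X1 r was 0.661 and within B6 0.816. With that score as a covariate, added after the data were seen, the strain difference of Npr3 was 0.14 (SE 0.16, edgeR adjusted p 0.581). With skeletal muscle, adipocyte and Schwann cell scores together it was -0.16 (edgeR adjusted p 0.526). Macrophage markers, of which 4 of 5 were lower in 129X1, summed to 243 to 694 CPM in 129X1 and 178.1 to 1244 CPM in B6, and with their score as a covariate Npr3 differed by 0.38 (edgeR adjusted p 0.252). Without the 16 libraries rich in Rag1, 12 of 129X1 and 4 of B6, the Npr3 difference was 0.73 (edgeR adjusted p 0.0449). That fit had additive terms for strain, treatment and regimen in place of group means. Npr3 made up 6.49 ± 2.30 percent of the 3 receptors per kilobase in 129X1, against 4.40 ± 1.83 percent in B6 (SD, n = 18 each).

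**Figure D2:**
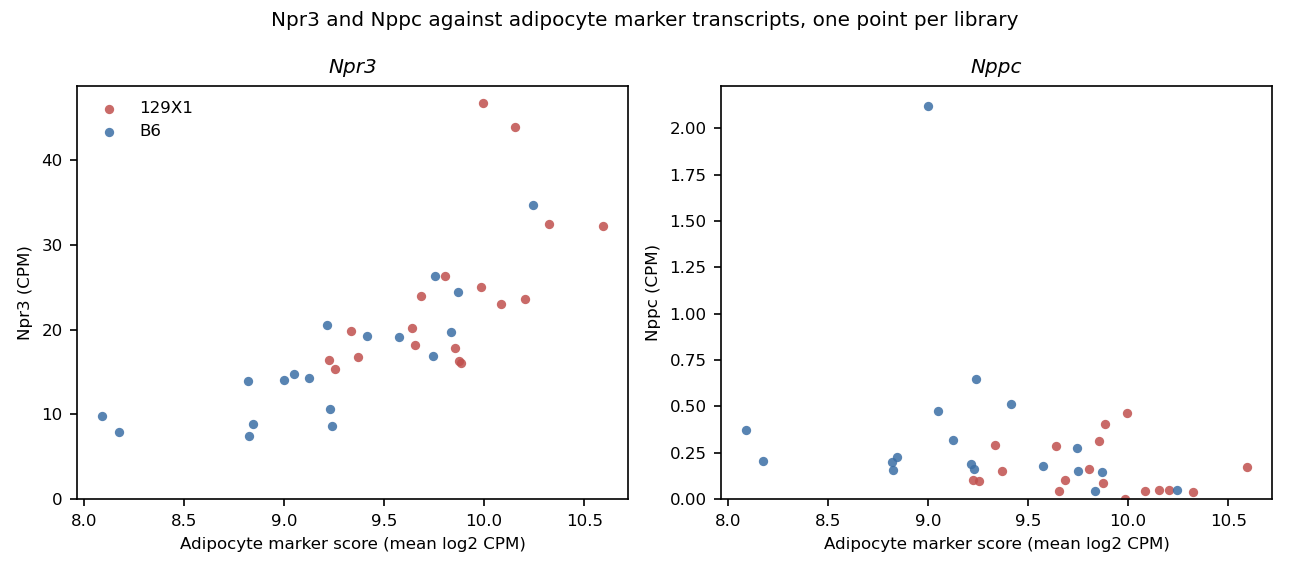
Npr3 (left panel) and Nppc (right panel) in CPM against the adipocyte marker score (mean log2 CPM of 7 markers); each point is 1 library, coloured by strain. Npr3 rises along the score in both strains, with r 0.661 in 129X1 and 0.816 in B6, and Nppc falls along it over the 36 libraries, with r -0.447. These r values were computed on log2 CPM of the gene, not on the plotted CPM.

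Nppc had 0 to 0.465 CPM (median 0.103) in 129X1 arteries and 0.0419 to 2.12 CPM (median 0.204) in B6 arteries, from 62 and 152 counts in 18 libraries each. Because Nppc entered the fit only through its high B6 libraries, its fitted strain differences, here and within treatments, are not read as a result. The ranges overlapped below 0.465 CPM, and 1 B6 library, Veh therapeutic replicate 3, stood apart with 50 of the 152 counts. The log2 difference was -1.18 with an SE of 0.41 and an edgeR adjusted p of 0.0295. Without that library it was -0.81 (edgeR adjusted p 0.0942), and the call was lost in 5 of the 36 fits that left out 1 library: also without B6 Sac/val prophylactic replicate 3 (-1.06), B6 Sac/val therapeutic replicate 2 (-1.10), B6 Val prophylactic replicate 2 (-1.03) or B6 Val therapeutic replicate 3 (-1.07). It was also lost with the adipocyte score (-0.72), with the macrophage score (-0.75) and without the libraries rich in Rag1 (-0.49). With the 3 tissue scores it was 0.13. Nppc was lower where the adipocyte score was higher, with r -0.447 and rho -0.501 (permutation adjusted p 0.0214 and 0.00851), and r -0.474 without the 2 farthest libraries. Within 129X1 that r was -0.191 and within B6 -0.380.

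Under Val, where 20.9 percent of all genes passed, Nppc had 0 to 0.149 CPM (median 0.0711) in 129X1 and 0.159 to 0.649 CPM (median 0.199) in B6, 6 libraries each. In counts these were 0 to 3 against 4 to 15, so the ranges adjoin near the floor. The share of all genes with no overlap between these libraries was not computed. The log2 difference of Nppc under Val, -2.09, had an edgeR adjusted p of 0.0523, and DESeq2 gave 0.0388. Under Veh it was -1.78 (edgeR adjusted p 0.0892), and under Sac/val the direction was the opposite at 0.34 (edgeR adjusted p 0.793). The Sac/val minus Veh difference by strain, 2.13 for Nppc, had an edgeR adjusted p of 0.952.

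The cyclase receptors showed no strain difference beyond their spread. Npr1 had 58.1 to 141 CPM (median 94.0) in 129X1 and 46.9 to 135 CPM (median 105) in B6, with means of 98.4 ± 24.8 and 99.0 ± 25.2 CPM (SD, n = 18 each). Its log2 difference was -0.01, with a 95% interval of -0.29 to 0.27. Npr2 had 54.2 to 125 CPM (median 81.9) in 129X1 and 28.4 to 107.3 CPM (median 87.5) in B6, a log2 difference of -0.02 with an interval of -0.30 to 0.26. The ranges overlapped for both genes, and the lowest libraries were of B6. Npr1 and Npr2 followed the contractile smooth muscle score, with r 0.634 and 0.667 and rho 0.693 and 0.730 (permutation adjusted p of rho 0.000152 for both), and r 0.671 and 0.693 without the 2 libraries farthest from the median. Within 129X1 r was 0.671 and 0.723, and within B6 0.685 and 0.813. With the endothelial score r was 0.743 and 0.716 (rho 0.652 and 0.578, permutation adjusted p of rho 0.000152 and 0.00196), and 0.635 and 0.470 without the 2 farthest libraries. Within 129X1 that r was 0.697 and 0.519, and within B6 0.805 and 0.806, where rho was lower at 0.573 and 0.463. With the thymus score both were negative, at r -0.558 and -0.671 (rho -0.498 and -0.658, permutation adjusted p of rho 0.00919 and 0.000227), and -0.467 and -0.623 without the 2 farthest. Within 129X1 r with thymus was -0.676 and -0.804, and within B6 -0.513 and -0.680. By rank it was -0.721 and -0.874 within 129X1 but only -0.172 and -0.181 within B6, so it was not shown across the B6 libraries. Npr2 also followed the Schwann cell score, at r 0.652 and rho 0.587 (permutation adjusted p 0.00014 and 0.00152), r 0.529 without the 2 farthest, 0.648 within 129X1 and 0.840 within B6. The rho of Npr2 with that score within B6 was lower, at 0.470. With the fibroblast score r was 0.480 and 0.532 (rho 0.455 and 0.493, permutation adjusted p of rho 0.0201 and 0.0112), 0.480 and 0.578 without the 2 farthest, 0.312 and 0.303 within 129X1 and 0.608 and 0.650 within B6. The single lowest library for both was B6 Val prophylactic replicate 1, whose Rag1 level of 1591 CPM was the highest of all.

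Furin had 75.4 to 145.5 CPM (median 101) in 129X1 and 67.8 to 166 CPM (median 125) in B6. Its log2 difference of -0.24 (SE 0.11) had an edgeR adjusted p of 0.0851 and did not pass, though it did in 4 of the 36 fits that left out 1 library, at -0.27 without 129X1 Sac/val prophylactic replicate 3, 129X1 Veh therapeutic replicate 2 or B6 Val therapeutic replicate 1 and at -0.30 without B6 Val prophylactic replicate 1. It also passed with the adipocyte score as a covariate (-0.40, edgeR adjusted p 0.0246). With the macrophage score it was 0.07. Corin had 0.0474 to 2.61 CPM (median 0.492) in 129X1 and 0.0832 to 0.905 CPM (median 0.5001) in B6. The top of the 129X1 range came from Val prophylactic replicates 1 and 2, with 55 and 38 counts. Its log2 difference of 0.09 had an interval of -0.64 to 0.81, and with the 3 tissue scores it became 1.74 (edgeR adjusted p 0.00193).

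Ostn, whose product is also called musclin and is made by skeletal muscle and bone, was sparse. It had 76 counts in 129X1 and 10 in B6, a ratio of 8.15. The 95% counting interval of that ratio, 4.199 to 17.7, covers counting error only and leaves out the spread between mice. Of the 18 libraries per strain, 9 in 129X1 and 11 in B6 were at 0, and 7 libraries, all 129X1, held 6 or more counts. Because the gene entered the fit through its high libraries, neither its fitted strain difference nor the ratio of counts is read as a result. Under Val it had 38 counts in 129X1 and 3 in B6. Over 36 libraries Ostn and the skeletal muscle score had r 0.543 and rho 0.559 (permutation adjusted p 0.0035 and 0.00267), and r 0.550 without the 2 farthest libraries. Within 129X1 r was 0.731 and rho 0.876, and within B6 -0.067 and -0.142. With the cardiac muscle score r was 0.677 and rho 0.539 (permutation adjusted p 0.000364 and 0.00412), and r 0.649 without the 2 farthest. Within 129X1 that r was 0.749 and rho 0.709, and within B6 -0.0094 and 0.048. Ostn was at 0 in 20 of 36 libraries, so both relations rest on its high libraries, and their p-values are not read as a result. Of the 5 cardiac markers tested, 2 were higher in 129X1, Sln and Myl4, while Myh6, Tnnt2 and Tnni3 did not pass. Among all 18628 tested genes, 3044 were higher and 3252 lower in 129X1. The list of 7 summed to 5.32 to 401 CPM in 129X1 and 7.26 to 27.8 CPM in B6. The highest single-library values were 367 CPM for Sln, 82.8 for Myl4, 39.3 for Myh6, 29.3 for Tnnt2 and 5.64 for Tnni3. Those of Nkx2-5 and Myl7 were 0.613 and 0.380 CPM, so the list does not show heart muscle as such. Skeletal muscle transcripts summed to 12.8 to 38909 CPM in 129X1 and 68.8 to 26177 CPM in B6. Of the 7 muscle markers 1 was higher in 129X1, close to the share of all genes.

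**Figure D3:**
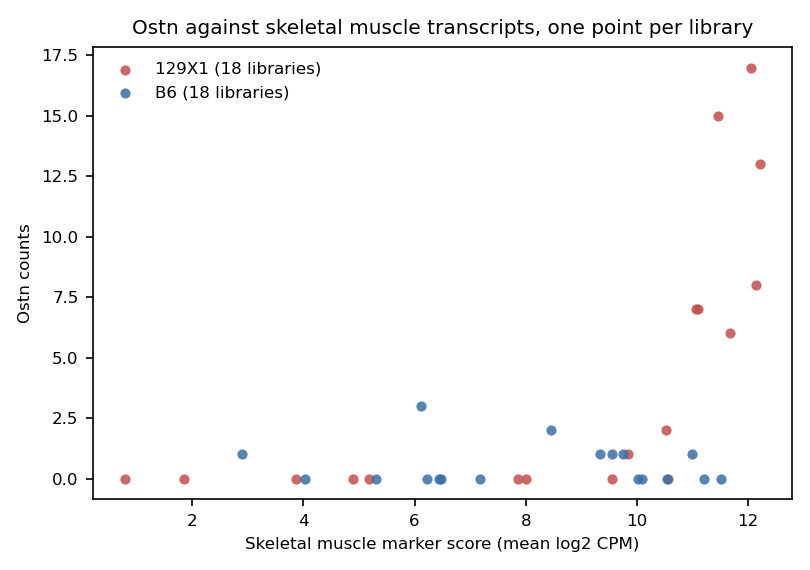
Ostn counts against the skeletal muscle marker score (mean log2 CPM of 7 markers); each point is 1 library, coloured by strain. The 7 libraries with 6 or more counts are all 129X1 and lie at the right, and no B6 library exceeds 3 counts.

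The list of 19 other genes of the pathway, of peptide-degrading enzymes, convertases and cyclic GMP effectors, was tested in full. In the strain comparison 2 were higher and 5 lower in 129X1, with a median log2 difference of -0.04. Mme averaged 100.1 CPM in 129X1 and 52.1 CPM in B6, a log2 difference of 0.97 (SE 0.18, edgeR adjusted p 0.0001). Pde3b, a phosphodiesterase that cyclic GMP inhibits and that is abundant in fat cells, was also higher, by 0.66 (edgeR adjusted p 0.0011). Pde5a, which degrades cyclic GMP, fell by 0.69 (edgeR adjusted p 0.0003), and Vasp, a substrate of the cyclic GMP-dependent kinases, fell by 0.49 (edgeR adjusted p 0.0014). The list is counted beside 33.8 percent of all genes, and 7 of 19 is close to that share. Within treatments 0 of the 19 passed under Sac/val, 4 under Val and 4 under Veh, where 6.26, 20.9 and 13.5 percent of all genes passed.

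The next comparisons asked what the drugs did, as means over both strains and both regimens. No gene passed for Sac/val minus Veh, Val minus Veh or Sac/val minus Val, 0 percent of 18628 in each, and therefore no member and none of the 19 pathway genes. At an unadjusted level of 0.05, 293, 453 and 491 genes stood below it in the 3 comparisons, and DESeq2 called 10, 2 and 17 with adjustment, none of them a member. The comparisons share libraries, so they are not independent. A median tested gene had a 95% half-width of about 0.38 on the log2 scale. That width is before adjustment over 18628 genes, so changes larger than it could also go uncalled. It differed between members, as their intervals below show.

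Npr1 had 58.1 to 119.5 CPM (median 90.2) under Sac/val, 46.9 to 130.5 CPM (median 88.6) under Val and 69.6 to 141 CPM (median 119) under Veh. The treated medians were lower, but the ranges overlapped. The log2 difference from Veh was -0.27 (95% interval -0.61 to 0.08) for Sac/val and -0.25 (-0.59 to 0.09) for Val. Npr2 had medians of 83.5, 85.1 and 85.6 CPM under Sac/val, Val and Veh, and its log2 difference for Sac/val was -0.07 (-0.41 to 0.27). Furin had medians of 111.4, 106.3 and 121 CPM, and its log2 differences were -0.04 (-0.31 to 0.22) for Sac/val and -0.13 (-0.39 to 0.14) for Val.

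Npr3 had 8.86 to 46.8 CPM (median 19.8) under Sac/val, 7.42 to 43.9 CPM (median 16.1) under Val and 9.79 to 32.4 CPM (median 18.5) under Veh. Its log2 difference was 0.09 (-0.37 to 0.54) for Sac/val minus Veh and 0.40 (-0.06 to 0.86) for Sac/val minus Val. Nppc had medians of 0.256, 0.154 and 0.174 CPM under Sac/val, Val and Veh. Its log2 difference was -0.15 (-1.20 to 0.91) for Sac/val and -0.79 (-1.86 to 0.28) for Val, with intervals wide enough to hold a change of 1 log2 unit downward. Corin had medians of 0.470, 0.768 and 0.351 CPM, and for Val minus Veh its log2 difference was 0.79 (-0.07 to 1.65).

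**Figure D4:**
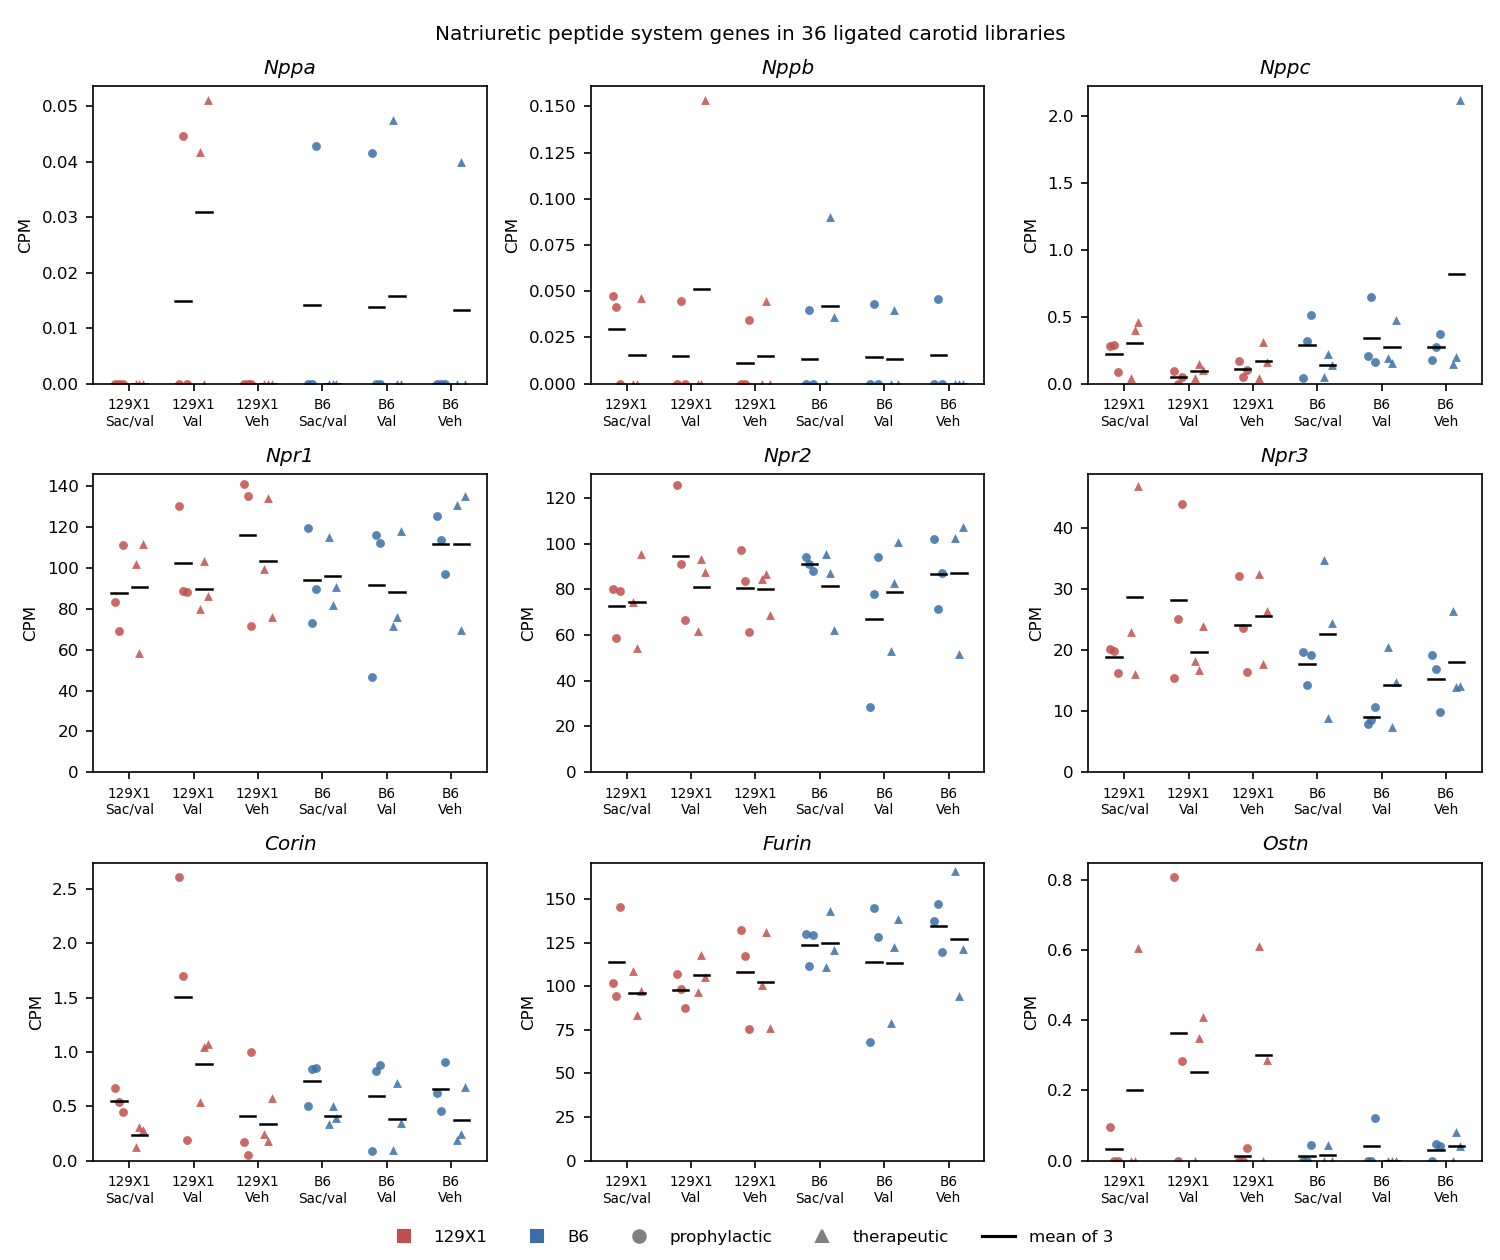
CPM of the 9 genes in every library by strain and treatment; circles are prophylactic and triangles therapeutic libraries, and the black line is the mean of 3. Over both strains and regimens the ranges of the treatments overlap for each gene. Single groups of 3 can lie apart, such as Npr3 in B6 prophylactic arteries under Sac/val and Val, a stratum picked after it was seen. A B6 Veh library carries the highest Nppc value, 2.12 CPM.

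Therapeutic dosing differed from prophylactic dosing in start and in number of days, so these cannot be told apart. No gene passed this comparison over all treatments (599 at an unadjusted level of 0.05, and 21 with DESeq2), and no member did. The largest difference among the members was in Corin, which had 0.0951 to 1.07 CPM (median 0.340) in therapeutic and 0.0474 to 2.61 CPM (median 0.641) in prophylactic libraries, a log2 difference of -0.76 (SE 0.34, edgeR adjusted p 1). Npr1 differed by -0.06 (-0.33 to 0.22), Npr2 by -0.02 (-0.30 to 0.26) and Npr3 by 0.24 (-0.14 to 0.61).

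Within a strain and regimen each drug comparison had 3 libraries against 3. No gene passed with edgeR in any of the 12, 0 percent in each (101 to 2400 genes at an unadjusted level of 0.05), while DESeq2 called 0 to 48 genes and no member. Of the 5 interactions none had a called gene with edgeR (156 to 960 at the unadjusted level), and DESeq2 called 1 to 15 genes and no member. Values of 3 strata, picked after they were seen, are given in full. In B6 prophylactic arteries Npr3 had 19.7, 14.3 and 19.2 CPM under Sac/val, against 7.86, 8.56 and 10.7 CPM under Val. The log2 difference of 0.97 (SE 0.45) had an edgeR adjusted p of 0.387. Of the 12 comparisons this one had the most genes at the unadjusted level, 2400. These libraries did not overlap, but the share of all genes that separate 3 libraries from 3 in this way was not computed. In 129X1 prophylactic arteries Corin had 2.61, 1.70 and 0.189 CPM under Val, against 0.172, 0.0474 and 0.996 CPM under Veh. The third Val library lay within the Veh range, and the log2 difference of 1.82 (SE 0.84) had an edgeR adjusted p of 0.892. Nppc in B6 therapeutic arteries had 0.0480, 0.226 and 0.144 CPM under Sac/val, against 0.150, 0.200 and 2.12 CPM under Veh. That log2 difference of -2.50 (SE 0.97, edgeR adjusted p 0.951) includes the Veh library with 50 counts.

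**Figure D5:**
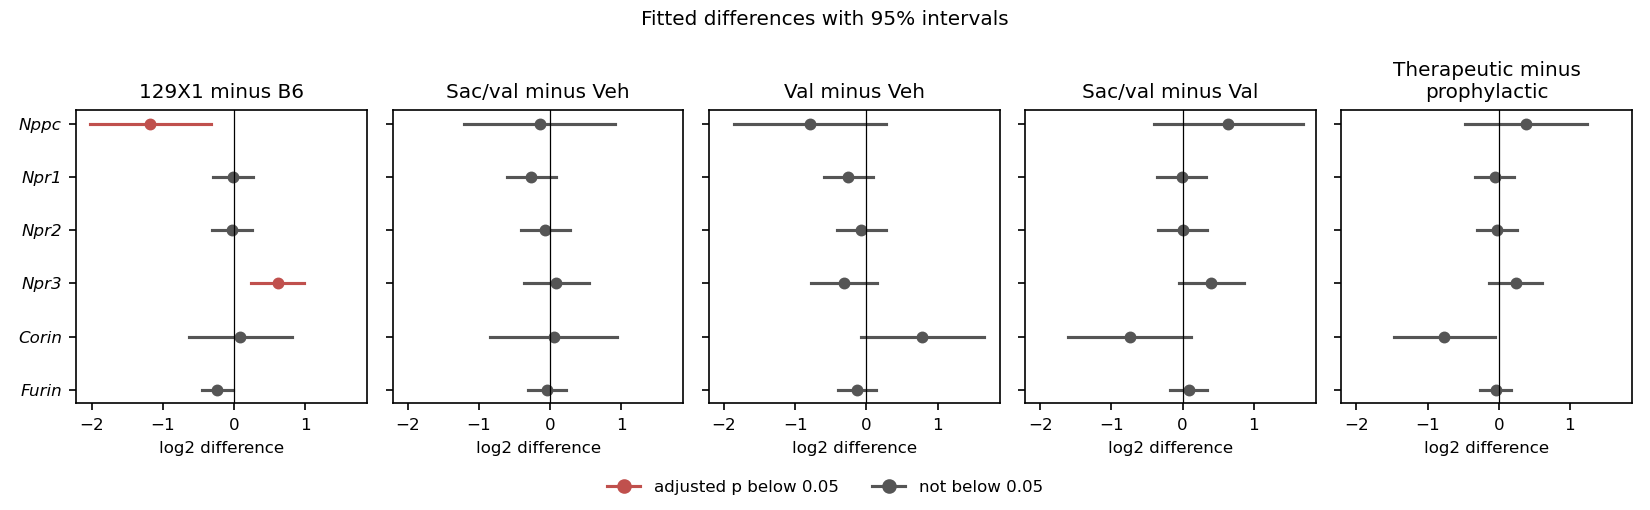
Fitted log2 differences with 95% intervals for 6 members in the 5 main comparisons, with Ostn left out because its fitted values in groups at 0 depend on the prior count. Red marks an edgeR adjusted p below 0.05: Npr3 and Nppc between the strains pass, and no member passes in the other 4 panels. Nppc entered the fit only through high B6 libraries, so its call is not read as a result.

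By rank correlation over 36 libraries with the 12495 tested genes of at least 5 CPM, the closest matches were Ptgr2, Srr and Ldhd for Npr3 (rho 0.903, 0.901 and 0.899), Caskin2, Kank1 and Sema5a for Npr1 (0.882, 0.864 and 0.862), and A430105I19Rik, Sorbs2 and Sorbs3 for Npr2 (0.839, 0.835 and 0.830). They were Cdc42ep1, Col4a2 and Ephb4 for Furin (0.931, 0.925 and 0.923), Pak1, Sox11 and Nek1 for Corin (0.917, 0.892 and 0.882), Ugcg, Rab20 and Tgif1 for Nppc (0.636, 0.629 and 0.617) and Ptpn3, Clip4 and Kctd9 for Ostn (0.712, 0.684 and 0.684). Among the members, Npr1 and Npr2 correlated best, at rho 0.741, followed by Npr1 and Furin at 0.684. These points share libraries and their tissue makeup, so they describe likeness and carry no p.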

How the data were processed

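RNA was measured in 36 libraries of ligated carotid artery (12 groups of 3). Per the submitters' processing notes, the authors trimmed reads with Trimmomatic 0.36, aligned them to GRCm38 with STAR 2.5.2b and counted genes with featureCounts of Subread 1.5.0p3; which annotation and strand setting they used is not given in the sources used here. The deposited values used were raw counts per gene symbol, and no column was without a sample. Groups came from the labels; replicate numbers are only names, and p-values measure the spread between mice. Counts were filtered with filterByExpr over the 12 groups, TMM-scaled and fitted with edgeR 4.0.16 (R 4.3.3) as 12 group means with the quasi-likelihood test; calls were made below 0.05 after Benjamini-Hochberg adjustment within a comparison. DESeq2 1.42.0 was an alternative. All fits without the Rag1-rich libraries had additive terms for strain, treatment and regimen in place of the 12 group means. Standard errors derive from the F statistic. Log2 CPM used a prior count of 2, and relations of genes to marker scores used log2 CPM of the gene. Permutation p-values used 100000 permutations. The fit was tested on simulated data. Members and lists were chosen with earlier results of these data known; named genes were the 9 members, up to 4 called pathway genes with the smallest p and the 3 closest matches of each tested member. Promoters are RefSeq windows of 250 bases.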

Additional observations from a re-analysis of the deposited data

How the results depend on the processing

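No paired analysis was possible because the labels carry no replicate numbers. Of the strain results, Npr3 passed in all 36 fits leaving out 1 library. With the 3 tissue scores, 3322 genes and 1 member passed between strains, and log2 differences were 0.13 for Nppc, 0.10 for Npr1, 0.38 for Npr2 and -0.16 for Npr3. With the macrophage score, added after seeing the data, Npr1, Npr2 and Furin were 0.18, 0.24 and 0.067. Without Rag1-rich libraries Npr1, Npr2 and Corin were 0.18, 0.10 and -0.037, and with animal number Corin was -0.047. For Sac/val minus Veh, Nppc was 0.0011 with tissue scores and 0.027 with animal number, and Ostn 1.87 without Rag1-rich libraries. For Val minus Veh, Npr3 was 0.0083 with tissue scores and Npr2 0.063 without Rag1-rich libraries. For Sac/val minus Val, Npr2 was -0.019 with DESeq2 and with its size factors, -0.012 with only the libraries compared and -0.13 without Rag1-rich libraries, where Nppc was -0.12 and Furin -0.0076; Corin was 0.11 with tissue scores. For regimen, Npr2 was 0.029 with tissue scores, Nppc -0.050 with animal number, and Npr1 0.012 and Furin 0.0099 without Rag1-rich libraries. Npr2 with DESeq2 was -0.025 in Val minus Veh of 129X1 therapeutic and -0.0039 by regimen. Genes called were 10, 2, 17 and 21 with DESeq2 for the drug comparisons and regimen, and for regimen 4 with tissue scores and 6 without Rag1-rich libraries. Under Sac/val 1166 genes passed between strains with edgeR and 1818 with DESeq2. Leaving out 1 library, strain members called were 1 to 4, with Nppc -1.32 to -0.81, Npr1 -0.084 to 0.034, Npr2 -0.11 to 0.032, Corin -0.23 to 0.22 and Furin -0.30 to -0.20. For Sac/val minus Veh, Nppc was -0.31 to 0.40, Npr3 -0.051 to 0.18, Corin -0.078 to 0.53, Furin -0.097 to 0.017 and Ostn -1.75 to 0.024. For Val minus Veh, Npr2 was -0.15 to 0.032 and Ostn -0.44 to 0.79. For Sac/val minus Val, Npr1 was -0.10 to 0.053, Npr2 -0.11 to 0.084 and Ostn -2.08 to 0.0078. For regimen, genes called were 0 to 1, Npr2 -0.097 to 0.037 and Ostn -0.32 to 1.07. The cause of these changes was not tested, and none of these reversed values passed the threshold. Low counts limit Nppa, Nppb, Ostn and Nppc, which had 7, 16, 86 and 214 counts in all 36 libraries.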

Other observations

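Ostn counts of 129X1 lay almost wholly in libraries rich in skeletal muscle transcripts, and those of B6 did not. At a skeletal muscle score of 10 or more, a limit chosen after the values were seen, 9 libraries of 129X1 held 75 of that strain's 76 Ostn counts, while 6 libraries of B6 held 1 of 10. The highest score in that range was 12.2 in 129X1 and 11.5 in B6. No test was run on these sets.

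The B6 Veh therapeutic replicate 3 library, with 50 Nppc counts, also had the highest thyroid marker score of the 36 libraries, 8.49 in mean log2 CPM. Over 36 libraries Nppc and the thyroid score had r 0.543 and rho 0.324 (permutation adjusted p 0.00537 and 0.134). Without the 2 farthest libraries r was 0.246. Whether thyroid tissue carried the Nppc counts of that B6 Veh library was not tested.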
